A study of Mus musculus with 12 samples.

Results

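The stefin A genes of mouse chromosome 16 encode small inhibitors of cysteine proteases, and their transcripts were followed here together with those of 2 further genes, Mmp25 and Retnlg, in lineage-negative bone marrow cells. The 7 genes are Stfa1, Stfa2, Stfa3, Stfa2l1, BC100530, Mmp25 and Retnlg, out of 31060 gene identifiers in the count table. They were selected on measured values, because Stfa1 and Mmp25 were high in the libraries of mice labelled Tet2+/-;Ins2Akita/+. Every comparison that involves those libraries is therefore given for these genes as a description without a test. All 7 genes passed the filter on low counts, which kept 15630 genes. They also pass that filter when it is applied to the other 8 libraries alone.

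Stefins, the first family of the cystatins, are cytosolic proteins without a signal peptide that block papain-like proteases such as the cathepsins by binding in their active site. The mouse carries a cluster of stefin A copies, and members of it are known as abundant transcripts of neutrophils and of skin. Mmp25 encodes a matrix metalloproteinase held at the cell surface by a lipid anchor and known from neutrophils, also under the name leukolysin. Retnlg encodes resistin-like gamma, a small secreted protein of the resistin family expressed in bone marrow and in neutrophils.

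The study measured total RNA by RNA-seq in bone marrow cells negative for lineage markers, a fraction usually enriched for stem and progenitor cells, from C57BL/6 mice of 4 genotypes. The groups were WT (n = 3), Tet2+/- (n = 3), Ins2Akita/+ (n = 2) and Tet2+/-;Ins2Akita/+ (n = 3, here the double mutant), and no allele or treatment is stated to be shared by all of them. Tet2 encodes an enzyme that oxidises methylated cytosine in DNA, and the Akita allele of Ins2 encodes a misfolding insulin that damages pancreatic beta cells and leads to high blood glucose. The labels give no age, and nothing in them tells if each sample is an animal of its own. The p-values therefore reflect only how far these libraries spread, which may be technical.

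Depth ran from 14814409 to 22600405 counts per library. The 3 libraries numbered 3, 1 each of WT, Tet2+/- and the double mutant, stood apart with 3.43% to 9.76% mitochondrial counts, against 1.36% to 1.94% in the other 8. Tet2 itself was at 91.2, 128 and 45.1 CPM (counts scaled to library size with TMM factors) in WT, 19.0, 18.5 and 19.3 CPM in Tet2+/-, 131 and 107 CPM in Ins2Akita/+ and 66.5, 108 and 34.2 CPM in the double mutant. The Tet2 level in the double mutant libraries thus lay above every Tet2+/- library, although the labels give both groups the same Tet2 genotype. Within each library number it lay below the WT level. Whether the labels are right was not tested, and each group name below stands for libraries so labelled. Genes of the stem and progenitor list summed to 290 to 697 CPM over all libraries. Markers of mature cells were present as well: the neutrophil secondary granule list summed to between 1288 CPM in a WT library and 40527 CPM in a double mutant library.

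The 5 stefin members lie within 298.581 kb of chromosome 16 (GRCm38, GENCODE M21), and all are protein coding. Stfa2l1 (ENSMUSG00000059657.4) spans 36156811 to 36161953 and Stfa1 (ENSMUSG00000071562.5) spans 36276951 to 36285373, both on the plus strand. BC100530 (ENSMUSG00000071561.2, Cstdc5 in RefSeq) spans 36359382 to 36367748, Stfa2 (ENSMUSG00000022902.7) 36403992 to 36408457 and Stfa3 (ENSMUSG00000054905.2) 36450537 to 36455392, all on the minus strand. Retnlg (ENSMUSG00000022651.5) lies on the same chromosome at 48872621 to 48874496, plus strand, and Mmp25 (ENSMUSG00000023903.7) on chromosome 17 at 23628311 to 23645277, minus strand.

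The stefin copies resemble each other upstream of their RefSeq start as well as in their coding sequence, which is why a short stretch of each is shown. In all 5 members and in the neighbouring relative Gm5483 (Cstdc4 in RefSeq), the RefSeq promoter table (GRCm38.p6) holds the same arrangement of GGAGGAG followed by TTTAAAA, in capitals in these 30-base stretches, which are written 5′ to 3′ on the strand of the gene:
Stfa1: tagaGGAGGAGctttcggataccTTTAAAA
Stfa2: cagaGGAGGAGcttacagaaaccTTTAAAA
Stfa3: agaGGAGGAGcttacagataaccTTTAAAA
Stfa2l1: tagaGGAGGAGtttacagaaaccTTTAAAA
BC100530: tagaGGAGGAGtttacagataccTTTAAAA
Gm5483: tagaGGAGGAGtttacagataccTTTAAAA

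These stretches lie before the RefSeq start, but those of Stfa1, Stfa2 and BC100530 fall inside the gene spans of GENCODE M21 given above, in a first exon, since the annotations place the start differently. The stretch of Stfa1 is at chr16:36277095-36277124 and that of Stfa2l1 at chr16:36156755-36156784, both plus strand. TTTAAAA begins 29 to 33 bases before the RefSeq start in Stfa1, Stfa2, Stfa3, Stfa2l1 and Gm5483, and 9 bases before it in BC100530. The wider setting is shown for Stfa2l1 and Stfa3, whose 120 bases before the start overlap no annotated exon, and for Retnlg, which holds neither run of letters:
Stfa2l1: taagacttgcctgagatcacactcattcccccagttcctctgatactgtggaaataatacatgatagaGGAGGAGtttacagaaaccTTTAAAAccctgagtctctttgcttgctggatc
Stfa3: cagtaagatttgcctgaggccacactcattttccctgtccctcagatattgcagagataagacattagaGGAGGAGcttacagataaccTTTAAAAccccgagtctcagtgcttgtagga
Retnlg: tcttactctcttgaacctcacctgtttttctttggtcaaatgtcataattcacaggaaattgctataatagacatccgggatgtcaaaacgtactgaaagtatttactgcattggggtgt

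Those 3 windows are chr16:36156691-36156810 (plus strand), chr16:36455393-36455512 (minus strand) and chr16:48872488-48872607 (plus strand). Both runs were picked after the sequences had been seen. Counting both strands over the 250 bases before the start, TTTAAAA occurs in 8.1% of 32851 RefSeq promoters and GGAGGAG in 15.1%. The promoter of Mmp25 holds neither within those 250 bases. The TATA box letters TATAAA, present in 12.4% of promoters, occur in none of the 7 members. AGGAAG, the core bound by the myeloid factor PU.1 (29.5% of promoters), occurs in Stfa1, Stfa3, BC100530 and Mmp25, and TTNCNNAA, the letters of a C/EBP site (36.8% of promoters), in Stfa1, Stfa2, Stfa2l1, BC100530 and Retnlg. Both are common enough that their presence sets no member apart, and a match is a description of letters only.

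Over the 250 bases before the start, identity among the 10 pairs of stefin members ran from 81.0% (Stfa2 and Stfa3) to 95.7% (Stfa1 and BC100530). Over the longest reading frame of each transcript it ran from 61.1% (Stfa1 and Stfa2l1) to 96.5% (Stfa2 and Stfa2l1), with unaligned ends left out. Such likeness bears on the counts, since a read that fits several copies may be given to one, split or dropped. Of all 50-base words of its transcripts, BC100530 shares 36.2% with another annotated gene, Stfa2l1 24.6%, Stfa1 22.5%, of which most are shared with BC100530, and Stfa2 15.9%. Stfa3 and Retnlg share none and Mmp25 0.0368%. How the authors counted such reads is not given in the sources used here, so the split of counts among BC100530, Stfa1, Stfa2 and Stfa2l1 is uncertain, while that of Stfa3, Retnlg and Mmp25 is little affected. BC100530 overlaps the antisense gene Gm15845 and Mmp25 overlaps 2 processed pseudogenes, and the use of strand in counting is not given either.

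In the double mutant libraries, all 7 genes lay above every other library. Among all 15630 genes tested, 5.04% did so, and since the genes were picked for this pattern nothing is read from that count. Values follow as replicates 1, 2 and 3 of WT, Tet2+/- and the double mutant and replicates 1 and 2 of Ins2Akita/+.

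Stfa1, the copy that gave the group its place here, had 5.94, 2.09 and 0.544 CPM in WT, 0, 0 and 0.193 CPM in Tet2+/-, 1.69 and 2.93 CPM in Ins2Akita/+ and 7.82, 46.1 and 17.5 CPM in the double mutant. Its lowest double mutant library was 1.32 times its highest other library, a WT one. Stfa2 had 0.655, 0.299 and 0 CPM in WT, 0.616, 0.178 and 0.193 CPM in Tet2+/-, 0.181 and 0.192 CPM in Ins2Akita/+ and 7.82, 15.4 and 93.2 CPM in the double mutant. Outside the double mutant no library had more than 13 counts of this gene, 3 counts there being 0.142 to 0.181 CPM, and the lowest double mutant library was 11.9 times the highest other one. Stfa3 had 0.957, 0.697 and 0.121 CPM in WT, 0.284, 0.415 and 0.0966 CPM in Tet2+/-, 0.605 and 0.672 CPM in Ins2Akita/+ and 5.11, 11.5 and 89.6 CPM in the double mutant. Here the third double mutant library was far above the other two.

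Stfa2l1, a close copy of Stfa2, was the stefin with the highest level outside the double mutant. It had 10.98, 4.48 and 1.75 CPM in WT, 7.16, 8.07 and 3.43 CPM in Tet2+/-, 5.08 and 4.95 CPM in Ins2Akita/+ and 32.8, 70.9 and 84.5 CPM in the double mutant. The lowest double mutant library was 2.99 times the highest other one, a WT library. BC100530 had 1.91, 0.548 and 0.181 CPM in WT, 2.18, 1.07 and 1.06 CPM in Tet2+/-, 1.03 and 0.768 CPM in Ins2Akita/+ and 22.4, 35.3 and 237 CPM in the double mutant. The gap between the groups was 10.3-fold at its narrowest, and the third double mutant library again stood far above the rest.

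Mmp25, the protease of the set, had 26.1, 27.5 and 6.59 CPM in WT, 13.7, 6.41 and 6.28 CPM in Tet2+/-, 40.8 and 20.0 CPM in Ins2Akita/+ and 89.5, 156 and 108 CPM in the double mutant. Its double mutant libraries were close to each other, and the lowest was 2.19 times the highest other library, which was of Ins2Akita/+. Retnlg, the secreted resistin-like protein, had 388, 366 and 78.6 CPM in WT, 415, 477 and 148 CPM in Tet2+/-, 389 and 233 CPM in Ins2Akita/+ and 730, 1490 and 1719 CPM in the double mutant. The lowest double mutant library was 1.53 times the highest other one, a Tet2+/- library.

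**Figure D1:**
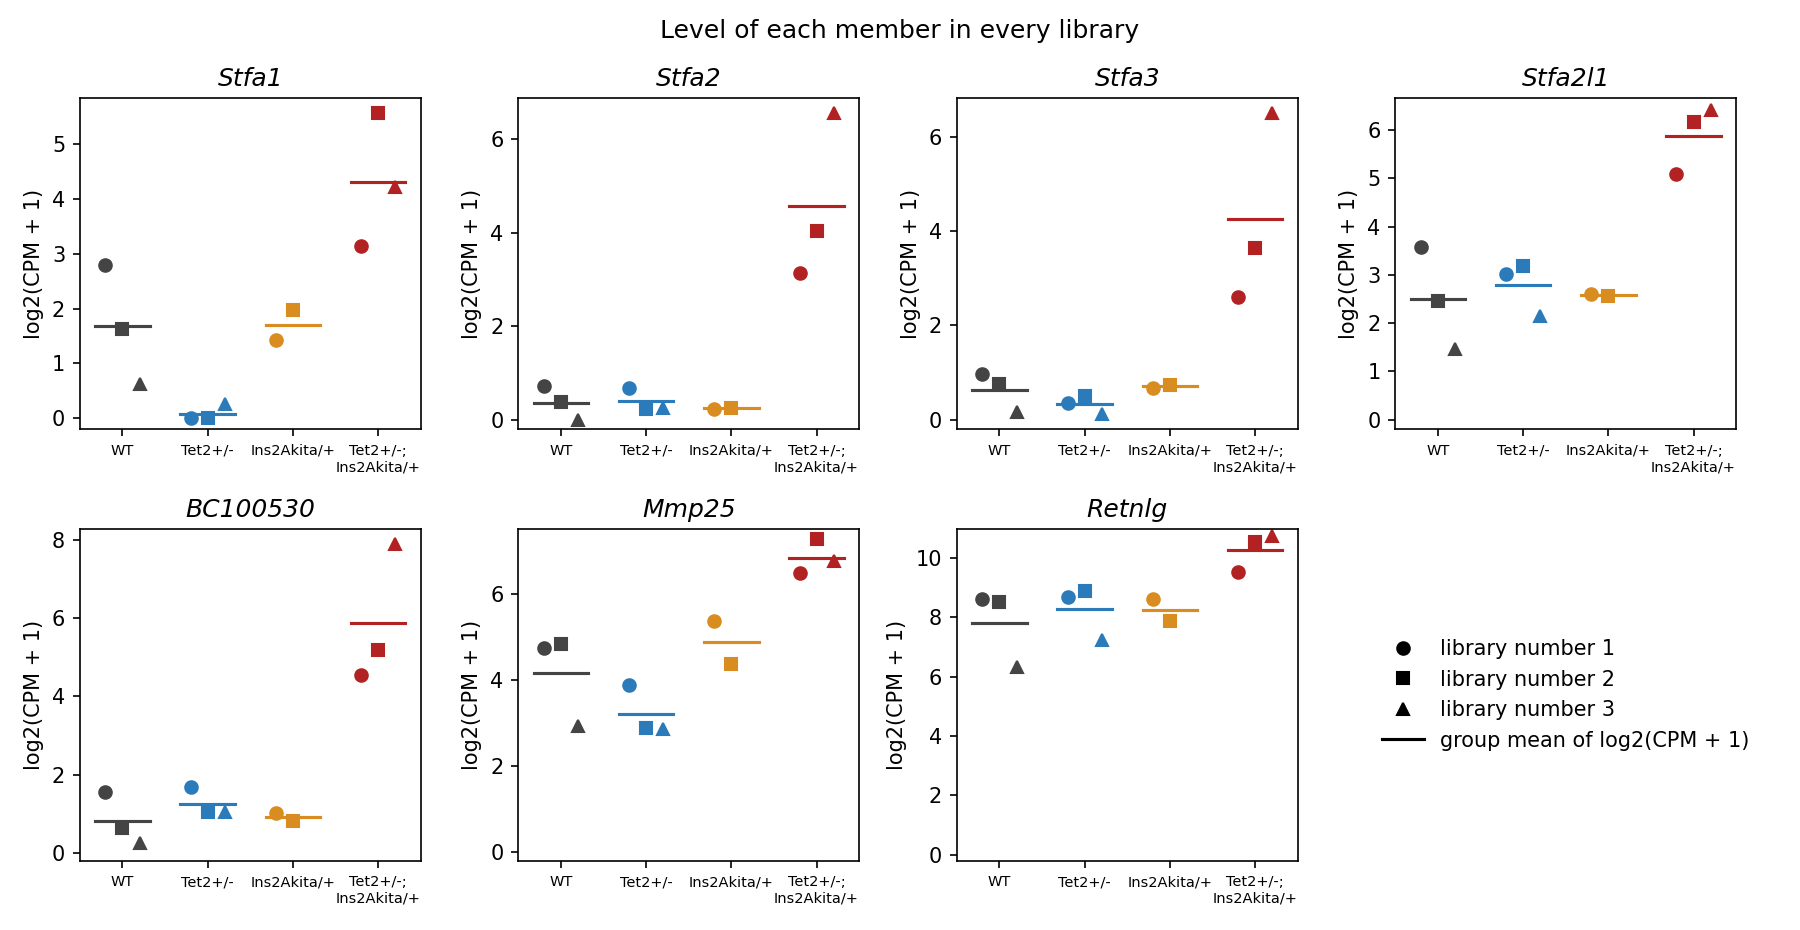
Level of each of the 7 genes in every library, as log2(CPM + 1) on the vertical axis, by genotype on the horizontal axis; points are single libraries, their shape gives the library number and lines are group means of log2(CPM + 1). The double mutant points lie above all others in each panel, with replicate 3 highest for Stfa2, Stfa3 and BC100530 and replicate 2 highest for Stfa1 and Mmp25.

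The genes differed among themselves in which double mutant library was highest. Replicate 3 exceeded replicate 1 by 11.9-fold for Stfa2, 17.5-fold for Stfa3 and 10.6-fold for BC100530, and replicate 2 by 6.05-fold, 7.76-fold and 6.73-fold. Stfa2l1 and Retnlg were nearly level between replicates 3 and 2, at ratios of 1.19 and 1.15. Stfa1 and Mmp25 went the other way, with replicate 3 at 0.380 and 0.692 of replicate 2. In WT, by contrast, replicate 3 was the lowest library for every one of the 7 genes, at 0.246 or less of the mean of replicates 1 and 2, and in Tet2+/- replicate 3 was the lowest for Stfa3, Stfa2l1, BC100530, Mmp25 and Retnlg. Replicate 3 of the double mutant thus ranked differently from the replicate 3 libraries of the other groups, which share its raised mitochondrial share.

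Per kilobase of exon, the order of mean levels in the double mutant was Retnlg at 2214 CPM per kb, Stfa2l1 at 150 (149.712 before rounding), BC100530 at 124, Stfa3 at 85.9, Stfa2 at 82.4, Stfa1 at 33.5 and Mmp25 at 22.3 CPM per kb. Below Retnlg, neighbours in that order did not differ beyond the spread between libraries. In WT the order per kilobase was Retnlg at 468 CPM per kb, Stfa2l1 at 13.7, Stfa1 at 4.03, Mmp25 at 3.79, Stfa3 at 1.44, BC100530 at 1.12 and Stfa2 at 0.675. The place of BC100530 in the double mutant rests on replicate 3.

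As fitted by edgeR, the log2 differences between the double mutant and WT were 3.05 (SE 0.96) for Stfa1, 6.86 (SE 1.23) for Stfa2, 5.86 (SE 1.17) for Stfa3, 3.45 (SE 0.65) for Stfa2l1, 6.77 (SE 1.14) for BC100530, 2.55 (SE 0.56) for Mmp25 and 2.24 (SE 0.64) for Retnlg. Without the 3 libraries numbered 3 the same differences were 2.75, 4.59, 3.32, 2.75, 4.54, 2.20 and 1.56, so the sizes for Stfa2, Stfa3 and BC100530 rest in large part on those libraries. Against Tet2+/- the log2 differences were 8.33 for Stfa1, 6.83 for Stfa2, 7.05 for Stfa3, 3.33 for Stfa2l1, 6.08 for BC100530, 3.74 for Mmp25 and 1.92 for Retnlg. Against Ins2Akita/+ they were 3.36, 7.65, 5.77, 3.64, 6.77, 1.96 and 2.08 in the same order. The value for Stfa1 against Tet2+/- has 4 counts in all behind its lower side and is imprecise. These contrasts chose the genes and share the double mutant libraries, so the differences are a description with no test.

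The comparisons between Tet2+/- and WT and between Ins2Akita/+ and WT do not contrast the libraries by which the genes were chosen, and were tested. The double mutant libraries still entered the shared fit, and with it the filter, the scaling and the estimate of spread. The SE and adjusted p of these comparisons are thus not independent of those libraries. Both comparisons share the WT libraries with each other and with the double mutant comparison. None of the 7 genes passed edgeR's quasi-likelihood test in Tet2+/- against WT, where 0.0256% of all genes did. With the replicate block and without the libraries numbered 3 there was also none, with 0.0512% and 0.146% of all genes called, and DESeq2 called 1, with 0.288% of all genes. At an unadjusted p under 0.05, edgeR gave 1 of the 7, against 2.12% of all genes. The largest difference was that of Stfa1, with 0, 0 and 4 counts in Tet2+/- against 118, 42 and 9 in WT. Its log2 difference was -5.28 (SE 1.28, edgeR quasi-likelihood test, Benjamini-Hochberg adjusted p = 0.823, lower in 3 of 3 libraries), and adjusted p ranged from 0.00226 (DESeq2) to 1 over 21 alternatives, of which DESeq2 alone called it. A count of 0 allows up to 0.142 and 0.178 CPM in those libraries, for counting error only. Stfa1 was the 1 member whose Tet2+/- libraries all lay below all WT libraries, as 2.18% of all genes did. The interval between the groups is narrow: the highest Tet2+/- library (0.193 CPM) and the lowest WT library (0.544 CPM) are both of number 3.

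Mmp25 had a log2 difference of -1.19 (SE 0.55) in Tet2+/- against WT, with an edgeR adjusted p of 1 that ranged from 0.590 to 1 over the alternatives. Within each library number its Tet2+/- level was 0.526, 0.233 and 0.953 of the WT level. The other members differed by -1.19 (SE 1.18) for Stfa3, 0.69 (SE 0.99) for BC100530, 0.32 (SE 0.61) for Retnlg, 0.11 (SE 0.60) for Stfa2l1 and 0.03 (SE 1.21) for Stfa2 on the log2 scale. Stfa2 and Stfa3 had at most 13 and 19 counts in these libraries, so their values say little. Apart from Stfa1 and Mmp25, each value lay within about 1 standard error of 0, and an SE of that size cannot tell a 2-fold change from none.

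In Ins2Akita/+ against WT, edgeR and DESeq2 called none of the 7 genes, and 0% of all genes. At an unadjusted p under 0.05, edgeR gave 67 genes (0.429%), with none of the 7 among them. The log2 differences were 0.60 (SE 0.59) for Mmp25, 0.17 (SE 0.68) for Retnlg, 0.09 (SE 1.22) for Stfa3, -0.20 (SE 0.68) for Stfa2l1, -0.31 (SE 1.03) for Stfa1 and -0.78 (SE 1.47) for Stfa2. BC100530 had means of 0.881 ± 0.913 CPM (SD, n = 3) in WT and 0.898 ± 0.184 CPM (SD, n = 2) in Ins2Akita/+. With 2 libraries in this group, the ranges of Ins2Akita/+ and WT overlapped for all 7 genes.

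**Figure D2:**
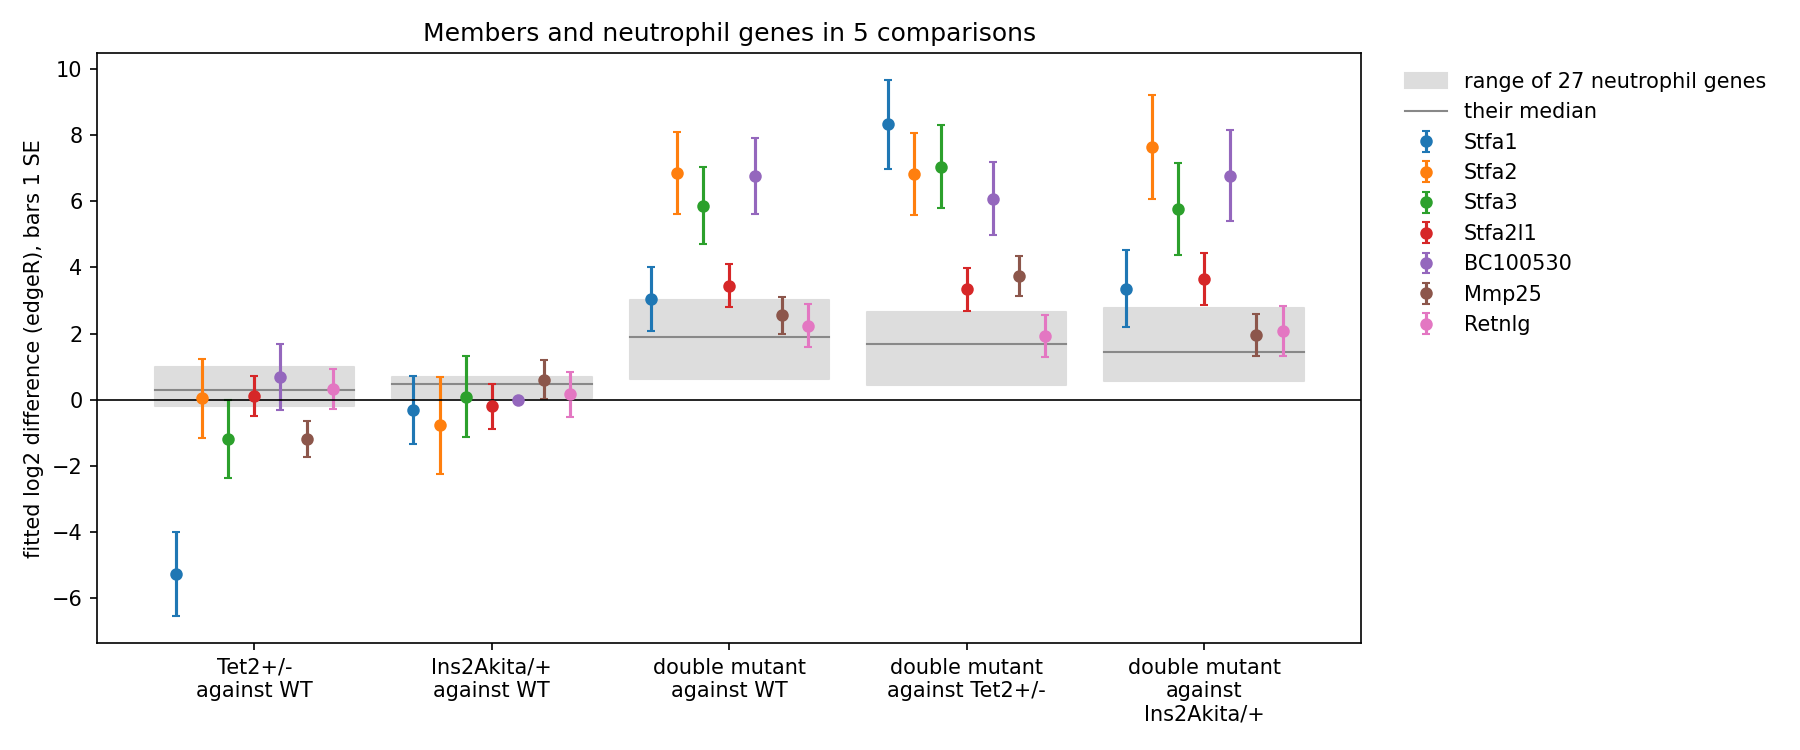
Fitted log2 differences of the 7 genes (points, bars 1 SE; none drawn for BC100530 in Ins2Akita/+ against WT) in 5 comparisons on the horizontal axis, over the range (grey) and median (line) of 27 neutrophil genes. In the double mutant against WT, 5 of the 7 genes lie above the neutrophil range, Stfa1 by far less than its bar, while Mmp25 and Retnlg lie inside it. The 7 genes were picked for high levels in the double mutant, so this is a description with no test.

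The make-up of the stefin counts also differed between libraries. Summed over the 5 stefin members, a library outside the double mutant held 43 to 406 counts, and the double mutant libraries held 1515, 3603 and 8237. Stfa2l1 made up most of them in every library outside the double mutant, for example 53.7% in WT replicate 1 and 82.9% in Tet2+/- replicate 2. Stfa1 contributed 29.1%, 25.8% and 20.9% in WT (exact binomial 95% intervals 24.7% to 33.7%, 19.2% to 33.2% and 10.04% to 36.04%). In Tet2+/- it contributed 0%, 0% and 3.88%, with intervals of 0% to 1.69%, 0% to 2.22% and 1.07% to 9.65%. It contributed 19.7% and 30.8% in Ins2Akita/+. In those Tet2+/- libraries Stfa2l1 lay within the WT range (3.43 to 8.07 CPM against 1.75 to 10.98 CPM).

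In the double mutant the share of Stfa1 was 10.3%, 25.7% and 3.35%, and that of BC100530 was 29.4%, 19.7% and 45.5%, compared with 6.75% to 9.36% for BC100530 in WT, 21.3%, 10.98% and 21.4% in Tet2+/- and 11.97% and 8.08% in Ins2Akita/+. Of the Tet2+/- libraries, 2 thus exceeded the lowest double mutant share. Intervals cover counting error only, reads here carry no stated molecular identifiers, and shared sequence can move counts between BC100530 and Stfa1. Stfa3, which shares no 50-base word with another gene, made up 6.73%, 6.44% and 17.2% of the stefin counts in the double mutant. Its share was 4.68%, 8.59% and 4.65% in WT, 2.78%, 4.27% and 1.94% in Tet2+/- and 7.04% and 7.07% in Ins2Akita/+. Of the double mutant libraries, only replicate 3 thus lay above the WT range.

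**Figure D3:**
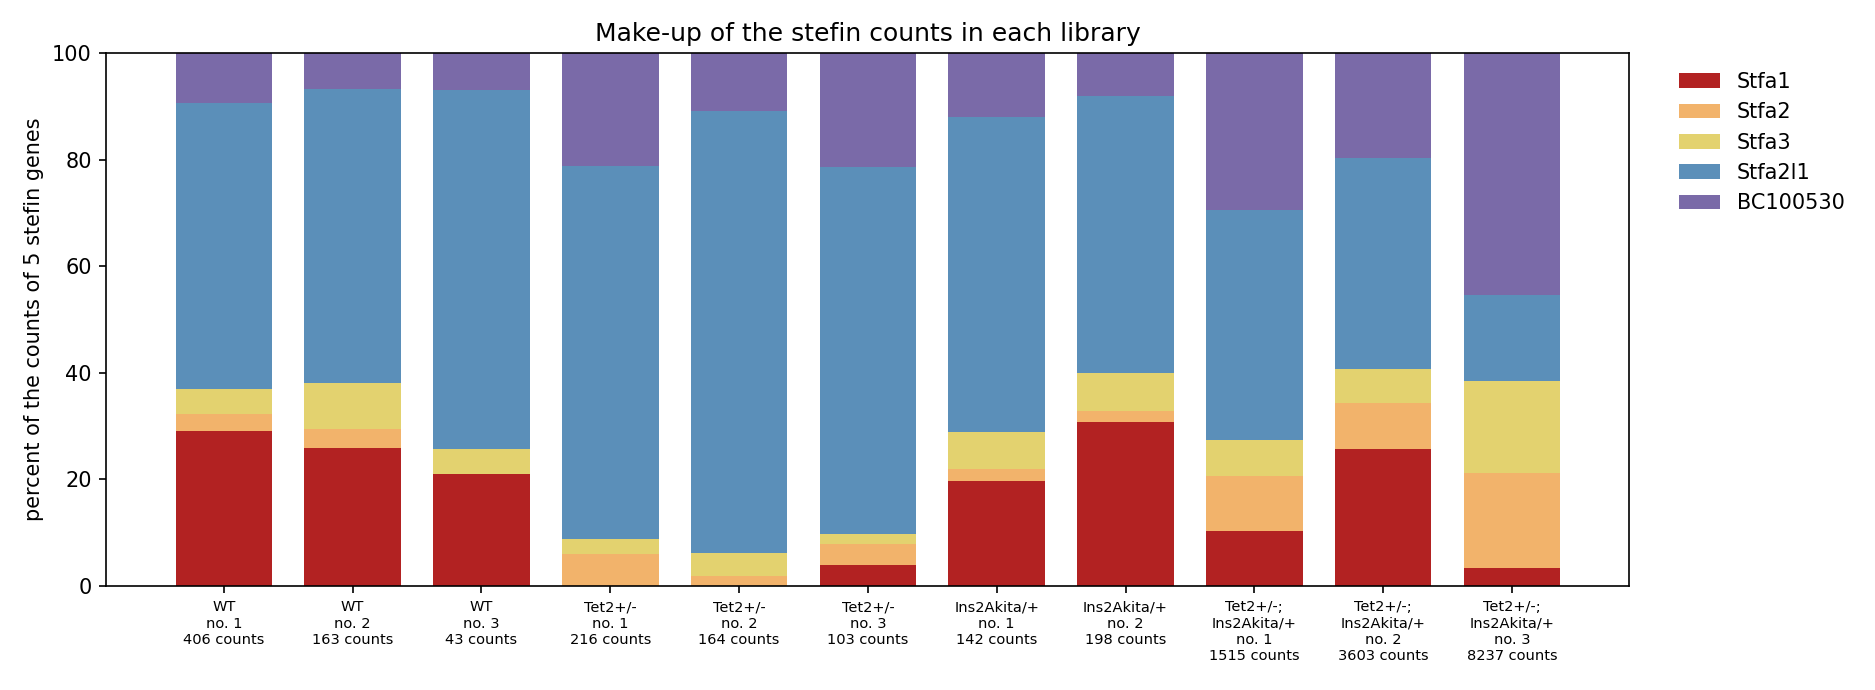
Percent of the counts of the 5 stefin genes (vertical axis) that fell on each gene, 1 bar per library, with the number of stefin counts under each bar. Stfa1 is at 0%, 0% and 3.88% in Tet2+/- and between 19.7% and 30.8% in WT and Ins2Akita/+, and BC100530 reaches 45.5% in replicate 3 of the double mutant.

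Other members of the stefin A family were looked at in the same table. Of 52 genes of the stefin, cystatin, cathepsin, metalloproteinase, inhibitor and resistin lists that are none of the 7, 45 were in the table and 31 were tested, and edgeR called none in any of the 5 comparisons. Over all genes, edgeR called 0.0448% in the double mutant against WT, 0.262% against Tet2+/- and 0.0384% against Ins2Akita/+. In the double mutant against WT, 18 of the 31 lay above 0 and 13 below, with a median log2 difference of 0.34, compared with -0.05 over all genes. At an unadjusted p under 0.05 there were 7, against 8.79% of all genes. DESeq2 called 5 (2.61% of all genes), all higher: Gm5483, BC117090, Mmp8, Mmp9 and Mmp13. The same comparison without the libraries numbered 3 gave BC117090, Gm5483 and Mmp8 (3.44% of all genes), and with the replicate block BC117090 and Mmp9 (1.63% of all genes). BC117090 and Mmp13 do not pass the low-count filter without the double mutant libraries, and thus entered the test through the group where they are high. Against Tet2+/-, DESeq2, the replicate block and the fit without libraries numbered 3 called 7, 5 and 4 of the 31, with 3.45%, 4.5% and 7.71% of all genes. Against Ins2Akita/+ they called 3, 0 and 2, with 1.21%, 0.115% and 2.89% of all genes.

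Gm5483, a stefin A copy between Stfa2l1 and Stfa1, had 4.33, 1.49 and 0.786 CPM in WT, 2.56, 1.90 and 1.84 CPM in Tet2+/-, 2.48 and 2.35 CPM in Ins2Akita/+ and 10.1, 24.1 and 64.8 CPM in the double mutant. Its log2 difference between the double mutant and WT was 3.89 (SE 0.77, edgeR quasi-likelihood test with Benjamini-Hochberg adjustment, adjusted p = 0.117). Gm5483 shares 14.2% of its 50-base words with other genes, so its counts are uncertain as those of Stfa2 are. BC117090, a stefin A copy between Stfa1 and BC100530, had 1, 0 and 0 counts in WT, 7, 1 and 5 in Tet2+/-, 0 and 0 in Ins2Akita/+ and 38, 17 and 293 in the double mutant. BC117090 shares 33.7% of its 50-base words with other genes, 27.2% with BC100530, and the pair is 95.9% identical in coding sequence, so counts of the pair may not be separate. Gm5483 and BC117090 had their highest level in replicate 3 of the double mutant, as Stfa2, Stfa3 and BC100530 did. Of the other relatives, Gm5416 had at most 9 counts and Csta1 at most 3 in any library, and neither passed the filter.

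A further stefin A copy was noticed after its values had been seen, 2010005H15Rik, which lies between Gm5483 and Stfa1 and is Csta2 in RefSeq. It had 1, 1 and 0 counts in WT, 0, 0 and 0 in Tet2+/-, 2 and 2 in Ins2Akita/+ and 4, 30 and 15 in the double mutant. Its highest library was replicate 2 of the double mutant, as for Stfa1, and it too passes the filter only with the double mutant libraries.

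The cathepsins, the proteases that stefins inhibit, showed no called difference between the double mutant and WT. All 10 cysteine cathepsins were tested, 5 lay above 0 and 5 below in the double mutant against WT, and the median was 0.14. Ctsb, the most abundant, had a mean and SD of 446 ± 11.47 CPM in the 3 WT libraries and 423 ± 116 CPM in the 3 double mutant libraries, and Ctsz at 161 ± 27.7 and 214 ± 71.2 CPM. Their log2 differences of -0.08 (SE 0.26) and 0.41 (SE 0.35) did not pass the edgeR test. Among the other cystatins, the secreted inhibitor Cst3 was at 292 ± 42.5 CPM in WT and 276 ± 28.1 CPM in the double mutant, and Cst7, an inhibitor found in lysosomes of leukocytes, at 77.1 ± 37.3 and 118 ± 11.7 CPM, neither of them called. None of these cathepsins or other cystatins was called by edgeR or DESeq2 in the double mutant against WT.

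Of 20 other matrix metalloproteinases, 13 were tested, with 6 above and 7 below 0 in the double mutant against WT. Mmp8, the collagenase of neutrophil granules, had a mean of 118 ± 68.4 CPM in the 3 WT libraries and 697 ± 245 CPM in the 3 double mutant libraries, a log2 difference of 2.57 (SE 0.63). Mmp9, a gelatinase of neutrophil granules, was at 153 ± 73.5 and 1056 ± 428 CPM (1055.84 before rounding), a log2 difference of 2.79 (SE 0.59). Mmp25 with 2.55 thus sat beside these 2 neutrophil proteases. Their edgeR adjusted p-values were 0.201 and 0.139 (quasi-likelihood test, Benjamini-Hochberg). Of the inhibitors of these enzymes, Timp2 was at 23.7 ± 5.06 CPM in WT and 43.7 ± 7.86 CPM in the double mutant (log2 difference 0.88, SE 0.32), and Reck, a membrane-bound inhibitor, at 9.59 ± 6.94 and 24.2 ± 4.50 CPM (1.33, SE 0.70), neither passing the edgeR test. Against Tet2+/-, DESeq2 and the replicate block each called Reck and Timp2 higher. Of the resistin family only Retnlg passed the filter; Retn was at 0.370 ± 0.361 CPM in the double mutant.

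Neutrophil genes were higher in the same libraries. Mmp8 and Mmp9 of the metalloproteinase list are also among the 27 neutrophil genes given here. Of 27 genes of the secondary granule and later neutrophil lists, 27 had a log2 difference above 0 in the double mutant against WT, with a median of 1.90 and a highest value of 3.004 (Fpr2, a receptor for formylated peptides), and in 26 of them the groups did not overlap, as 9.55% of all genes did in that direction. edgeR called 0 of the 27 (0.0448% of all genes), with 16 at an unadjusted p under 0.05 (8.79% of all genes), and DESeq2 called 7 (2.61% of all genes). Without the libraries numbered 3 the median was 1.42, and all 27 were again above 0. The secondary granule list summed to 1288 to 14936 CPM in WT, 1532 to 17425 CPM in Tet2+/-, 10441 to 19601 CPM in Ins2Akita/+ and 30387 to 40527 CPM in the double mutant, and the later neutrophil list to 1392 to 11932, 1881 to 15489, 8016 to 15330 and 23136 to 40359 CPM. The low ends in WT and Tet2+/- are the libraries numbered 3: the secondary granule sums of replicates 1 and 2 were 13786 and 14936 CPM in WT and 16096 and 17425 CPM in Tet2+/-, while replicate 3 of the double mutant had 33473 CPM. Ngp and Ltf, of the granules, had means of 13066 and 7578 CPM in the double mutant and 4122 and 1905 CPM in WT, where replicate 3 lowers the mean, and S100a9 and S100a8 had 17142 and 9654 CPM against 4297 and 2361 CPM. In these bulk samples, more neutrophil-lineage cells and more RNA per cell cannot be told apart, and their part in the levels of the 7 genes was not tested.

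Set against the mean log2(CPM + 1) of those 27 genes in the same library, Mmp25 lay between -2.97 and -2.38 in WT, -5.03 and -2.66 in Tet2+/-, -2.87 and -2.73 in Ins2Akita/+ and -2.46 and -2.20 in the double mutant. The double mutant and WT ranges overlapped on this scale. The overlap came from replicate 3, at -2.38 in WT and -2.46 in the double mutant. Replicates 1 and 2 were at -2.91 and -2.97 in WT and -2.30 and -2.20 in the double mutant. Retnlg lay between 0.71 and 1.01 in WT and 0.72 and 1.51 in the double mutant, which also overlapped. BC100530 lay between -7.18 and -5.06 in WT, -6.87 and -4.48 in Tet2+/-, -7.09 and -6.43 in Ins2Akita/+ and -4.32 and -1.34 in the double mutant, the only member whose double mutant range lay apart from all 3 other ranges. For Stfa1 the double mutant range, -5.66 to -3.94, overlapped that of WT, -6.18 to -4.67, and the same held for Stfa2 and Stfa3. Stfa2l1, at -3.72 to -2.82 in the double mutant, overlapped Tet2+/- but not WT. Within each library number, however, Stfa2, Stfa3, Stfa2l1 and BC100530 all lay higher in the double mutant than in WT and Tet2+/-. For Stfa2, replicates 1, 2 and 3 were at -5.66, -5.46 and -2.68 in the double mutant. In WT they were at -6.94, -7.43 and -5.30, the last with 0 counts. Stfa1 lay below WT in replicates 1 and 3. These values too are a description with no test. This scale compresses genes of low level, which holds for most stefins outside the double mutant.

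Markers of other cells gave further values beside these. The 10 B lineage genes lay below 0 in the double mutant against WT without exception (median -2.34, summed level 164 to 225 CPM in WT and 57.8 to 78.0 CPM in the double mutant), and edgeR called 5 of them lower against Tet2+/- (0.262% of all genes), while DESeq2, the replicate block and the fit without libraries numbered 3 called 9 each (3.45%, 4.5% and 7.71% of all genes). The mean log2(CPM + 1) of the T and NK cell list was 4.75, 4.46 and 3.64 in WT and 3.63, 3.21 and 3.61 in the double mutant. Its summed level overlapped, at 97.4 to 273 CPM in WT and 138 to 180 CPM in the double mutant. Primary granule genes, of early granulocytes, had a median of 0.70, erythroid genes -0.57 and monocyte genes 0.09. Keratinocytes are another known source of stefin A, and their list summed to at most 1.36 CPM in any library, with Krt5 at 0 counts in every WT, Ins2Akita/+ and double mutant library.

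Genes whose level followed Mmp25 and Stfa1 across the 11 libraries were ranked by Pearson's r of log2(CPM + 1) among 11936 genes with a mean of at least 1 CPM, as a description, since libraries of a group share genotype and cell make-up. Closest to Mmp25 were Slfn4 (r = 0.993), Acvrl1 (0.974), Il1f9 (0.963), Slfn1 (0.961), Edem2 (0.960) and Pnpla1 (0.959). Over the 8 libraries outside the double mutant, r was still 0.980 for Slfn4 and 0.909 or higher for the other 5. Slfn4, a Schlafen gene of myeloid cells, had 104, 132 and 29.9 CPM in WT, 53.7, 39.6 and 37.1 CPM in Tet2+/-, 182 and 82.3 CPM in Ins2Akita/+ and 348, 723 and 488 CPM in the double mutant. Like Mmp25, it was lowest in WT replicate 3 and Tet2+/- and highest in replicate 2 of the double mutant. Closest to Stfa1 were Neat1 (0.954), Ighg1 (0.951), Ighv1-34 (0.929), Adtrp (0.923), Anxa7 (0.920) and Slfn4 (0.918), with r from 0.630 (Anxa7) to 0.910 (Ighg1) outside the double mutant.

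The genes around the cluster were looked at for the same comparisons. Of 18 genes of other families within 500 kb of the outermost stefin members, edgeR called 0 in each of the 5 comparisons. It called 0% to 0.262% of all genes in them. In the double mutant against WT, 4 lay above 0 and 14 below, with a median of -0.15 and a range from -1.90 (Slc15a2, a peptide transporter) to 1.24 (Gm15564). The 5 stefin members, Gm5483, BC117090 and 2010005H15Rik, which lie between the neighbours on both sides, all exceeded 3 on that scale. The members were picked for high levels in the double mutant, and BC117090 and 2010005H15Rik pass the filter only through that group. The gap to the neighbours is therefore a description with no test.

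**Figure D4:**
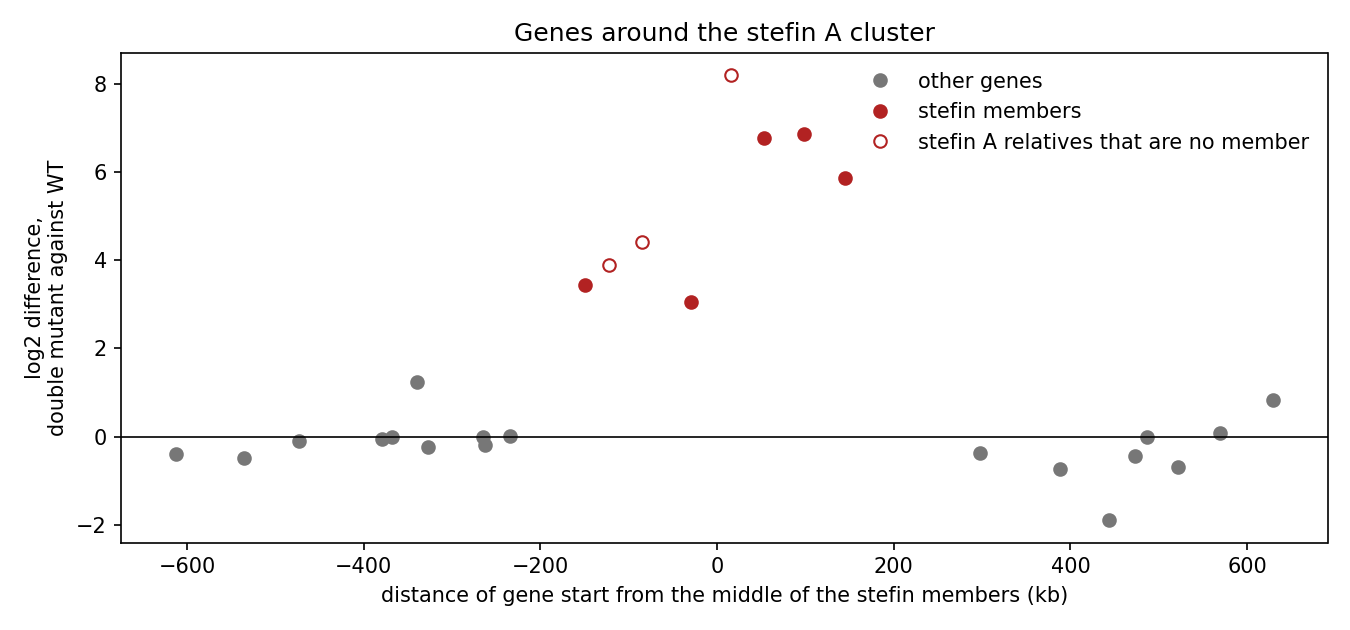
Log2 difference between the double mutant and WT (vertical axis) for each tested gene, against the distance of its start from the middle of the stefin members in kb. Stefin members (filled red) and stefin relatives (open red) lie above 3, and the 18 other genes (grey) lie between -1.90 and 1.24. The members were picked for high levels in the double mutant, so the gap is a description with no test.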

How the data were processed

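The authors deposited 1 table of whole-number read counts per gene without normalisation, judged from its values. The tools listed in the submitters' processing notes are TopHat2 2.1.1, Trimmomatic 0.32 and bcl2fastq, and the build is GRCm38; which program counted reads, and with which strand setting, is not given in the sources used here. Of 31060 identifiers, 30875 matched GENCODE M21 without the version. Of 12 labelled samples 11 have a matching column; double mutant sample 4 was not analysed here, and 1 column, whose name has the letter of the Ins2Akita/+ columns and the number 3 but matches no label, was not used.

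Counts were tested with edgeR 4.0.16 (R 4.3.3): filterByExpr, TMM factors, 1 fit of 4 groups, glmQLFit with robust=TRUE, glmQLFTest, and Benjamini-Hochberg adjusted p under 0.05 over all genes. SE is the log2 difference over the square root of F. Scripts were tested on simulated data. DESeq2 1.42.0 and voom of limma 3.58.1 were alternatives, with those of the closing section. Same-numbered libraries of WT, Tet2+/- and the double mutant deviated together from their group means (correlations 0.378 to 0.850), so numbers were taken as pairing these groups. With Ins2Akita/+ correlations ran from -0.445 to 0.359. The main fit held no term for library number, so its p-values are unpaired. Among the fits, only the replicate block used the numbers, and it did so for Ins2Akita/+ as well. Every pair of libraries of a group differed by more than sampling noise (lowest chi-square per gene 15.6).

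The genes and gene lists were chosen with earlier results of these data known. Named genes are all 7 members, called genes of each list (or its up to 4 by smallest p where many are, or its 2 most abundant where none is), and the 6 closest in level to Stfa1 and Mmp25; 2010005H15Rik and genes called by an alternative were added after their values were seen. Identities come from pairwise alignments of the longest reading frame per gene.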

Additional observations from a re-analysis of the deposited data

How the results depend on the processing

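Of 21 alternatives, 10 changed a setting (DESeq2, voom, upper quartile or RLE factors, robust=FALSE, a 5 CPM minimum, no low-count filter, only the groups compared, the replicate block, or leaving out all libraries numbered 3) and 11 left out 1 library each. No difference of the 7 genes that was called changed direction under any of them. Of the 7 genes in Tet2+/- against WT, DESeq2 called 1 (Stfa1) and the others 0; in Ins2Akita/+ against WT every alternative called 0. The double mutant comparisons chose the 7 genes, so the following counts describe the settings and are no test. Against WT, the double mutant had 7 called by DESeq2 (2.61% of all genes), 4 with the replicate block (1.63%) and 5 without libraries numbered 3 (3.44%). Against Tet2+/-, edgeR called 2 (0.262% of all genes). DESeq2, the replicate block and leaving out libraries numbered 3 gave 6 each (3.45%, 4.5% and 7.71% of all genes). The voom fit and no filter gave 1 each, and the 5 CPM minimum and only the groups compared 0 each. Leaving out 1 library gave 0 to 4, with 0 to 66 called over all genes. There were 4 without WT replicate 3 and 0 without each of the other 10. Against Ins2Akita/+, DESeq2 called 4 (1.21% of all genes) and leaving out libraries numbered 3 gave 5 (2.89%). The cause of these shifts was not tested.

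Mmp8 and Mmp9 are among the 31 related genes as well as the 27 neutrophil genes, so the counts of the sets overlap. Of the 31 related genes tested, the double mutant against WT had 5 called by DESeq2, 2 with the replicate block and 3 without libraries numbered 3. Against Tet2+/- these were 7, 5 and 4, of which Ctsw was the 1 lower gene, and against Ins2Akita/+ DESeq2 gave 3 and leaving out libraries numbered 3 gave 2. Of the 27 neutrophil genes, the double mutant against WT had 7 (DESeq2), 2 (replicate block) and 10 (without libraries numbered 3), and 0 to 1 when 1 library was left out, with 1 without double mutant replicate 1. Against Tet2+/- the first 3 of these were 6, 8 and 6, and against Ins2Akita/+ DESeq2 gave 3 and leaving out libraries numbered 3 gave 8. For DESeq2, the replicate block and leaving out libraries numbered 3, the shares of all genes called are those given above.

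Over all genes, the double mutant against WT had 7 called, and 6 to 519 over those 10 settings; Tet2+/- against WT had 4, and 2 to 45; the double mutant against Tet2+/- had 41, and 0 to 1163; against Ins2Akita/+ it had 6, and 1 to 436. Leaving out 1 library gave 1 to 49, 1 to 7, 0 to 66 and 0 to 11 in that order. Low counts limit the stefins outside the double mutant: 3 counts correspond to 0.142 to 0.181 CPM there.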
